A study of Rattus norvegicus with 10 samples.

Results

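The genes described here are 5 that serve salt and cation reabsorption in the thick ascending limb of the loop of Henle: *Slc12a1*, *Umod*, *Bsnd*, *Cldn16* and *Cldn19*. They were taken by symbol from the gene table, where each symbol has 1 row, so the 5 are complete and are 5 of 32545 genes. Expression was measured by RNA-Seq of poly-A RNA from renal cortex, with 1 library for each of 5 male and 5 female rats of the PCK strain, although the sample labels say only kidney. PCK rats (PCK/CrljCrl-Pkhd1pck/Crl) carry a mutation of *Pkhd1* and are a model of autosomal recessive polycystic kidney disease. Both groups carried it and no treatment is named, so the comparison is of females with males among cystic animals, with no library from a rat without cysts. The animals were littermates from 2 litters, and which rat came from which litter is not in the labels. Their age was 12 to 14 weeks in the series text and 10 to 12 weeks in the methods.

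The thick ascending limb takes up sodium, potassium and chloride from the tubule fluid through the apical cotransporter NKCC2, the product of *Slc12a1*. Chloride leaves the cell on the basolateral side, for which barttin, the product of *Bsnd*, is needed, while potassium returns to the lumen through ROMK. The voltage that results draws calcium and magnesium between the cells through pores that claudin-16 and claudin-19 form together, and the same cells secrete uromodulin, the product of *Umod* and the most abundant protein of normal urine. Inherited loss of NKCC2 or barttin causes Bartter syndrome, and loss of either claudin causes renal magnesium and calcium wasting.

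In the deposited table, which uses the Rnor_6.0 build, *Slc12a1* (ENSRNOG00000005367) lies at 3:117421604-117498367 on the plus strand and *Umod* (ENSRNOG00000015557) at 1:189186026-189199376 on the minus strand. *Bsnd* (ENSRNOG00000006543) lies at 5:126071846-126080698 on the minus strand and *Cldn19* (ENSRNOG00000007922) at 5:138300107-138305683 on the plus strand. *Cldn16* (ENSRNOG00000055138) lies at 11:77681794-77703255 on the minus strand. No other gene of the table overlapped any of these intervals. The values cover whole genes and do not separate exons or isoforms, and NKCC2 has isoforms that differ along the limb.

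Sequences upstream of the start were available for all 5 genes from RefSeq, on the GRCr8 build, which is not the build of the expression table. Those of 3 genes are shown because *Bsnd* was the gene whose sex difference passed the test across all genes, and *Slc12a1* and *Umod* were the pair that varied most alike between rats. RefSeq holds 2 starts for *Slc12a1*, and the window of the first is shown. Each run holds the 250 bases before the start, read 5′ to 3′ on the gene's strand. Capitals mark matches to the motifs searched on both strands. These were a TATA box, a CCAAT box, a half-site of HNF1, a half-site of the estrogen-related receptors and a half-site of the glucocorticoid and androgen receptors.
Slc12a1: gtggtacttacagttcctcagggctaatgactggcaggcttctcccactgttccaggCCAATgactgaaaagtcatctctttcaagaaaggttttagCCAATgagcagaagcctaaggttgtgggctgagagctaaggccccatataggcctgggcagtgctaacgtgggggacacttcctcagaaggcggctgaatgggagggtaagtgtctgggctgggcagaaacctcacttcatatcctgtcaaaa
Umod: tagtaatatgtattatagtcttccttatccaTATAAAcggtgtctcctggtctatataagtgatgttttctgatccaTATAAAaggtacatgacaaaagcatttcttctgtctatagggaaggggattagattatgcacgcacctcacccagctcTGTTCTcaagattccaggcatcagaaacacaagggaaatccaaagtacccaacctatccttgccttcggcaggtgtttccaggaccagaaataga
Bsnd: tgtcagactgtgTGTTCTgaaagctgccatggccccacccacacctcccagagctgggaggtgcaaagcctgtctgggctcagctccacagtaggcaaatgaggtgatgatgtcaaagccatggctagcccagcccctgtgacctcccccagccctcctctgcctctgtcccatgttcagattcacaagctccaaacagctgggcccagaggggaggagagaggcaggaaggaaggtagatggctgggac

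The *Slc12a1* run is chr3:132859409-132859658, the *Umod* run is chr1:183261017-183261266 and the *Bsnd* run is chr5:126489390-126489639. *Slc12a1* held the CCAAT box, spelled by its name, at 193 to 189 and at 153 to 149 bases before the start, which is 124 to 120 and 84 to 80 bases before its other start, and 34.0% of 33469 rat windows of this length hold that motif. *Umod* held the TATA box, searched as TATAAA, at 219 to 214 and at 173 to 168 bases before the start, a motif found in 12.9% of windows. The half-site of the glucocorticoid and androgen receptors, searched as AGAACA, stood on the opposite strand at 95 to 90 bases before the *Umod* start and at 238 to 233 bases before the *Bsnd* start. It also stood on the gene's own strand at 103 to 98 bases before the *Cldn16* start, and 17.5% of all windows hold it. No match overlapped another. The *Cldn19* window held none of the motifs. None of the 5 held the HNF1 half-site, searched as GTTAAT and present in 6.45% of windows. Nor did any hold the half-site of the estrogen-related receptors, searched as AAGGTCA and present in 3.99%. These matches describe the letters only.

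Gene expression is given as FPKM, fragments scaled to gene length and to the mapped reads of a library. The libraries held 13912569 to 20285911 reads on genes, with a median of 14387669 in males and 15896262 in females, and 14.3% to 26.8% of them were mitochondrial. The highest share was that of female 2, against 19.1% or less in the other 9, and its reads differed from those of each other library by a chi-square per degree of freedom of 65.1 to 100.2. Without female 2 the test called 284 genes higher and 266 lower. With a floor on the mean of 0.1 FPKM, 17631 genes entered the test across all genes (limma on log2(FPKM + 0.1), Benjamini-Hochberg adjustment). The test called 2.40% of them at an adjusted p of 0.05, with 1.26% higher (223 genes) and 1.14% lower (201 genes) in females. limma-voom on reads recovered from FPKM called 190 higher and 318 lower. The median log2 fold change of all tested genes was -0.01. All 5 genes passed the filter. A fold change is always female over male and on the log2(FPKM + 0.1) scale. In bulk RNA, fewer cells of a type and less RNA per cell cannot be told apart.

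Across the 5 genes, transcript levels spanned a wide range and 1 gene, *Bsnd*, passed the test between the sexes. It was higher in females, by 1.42-fold (95% interval 1.22 to 1.66). *Slc12a1* and *Umod* had female means above the male means but did not pass the test across all genes. The differences of *Cldn16* and *Cldn19* were smaller than the spread between rats. The count called was therefore 1 of 5, beside the 2.40% of all genes. The study's pair of thresholds, an adjusted p of 0.05 with a log2 change of 1 or more either way, was passed together by 1.32% of all genes and by none of the 5. Both *Slc12a1* and *Bsnd* had an unadjusted limma p under 0.05, as did 15.7% of all genes. The median log2 fold change of the 5 was 0.35.

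*Slc12a1* encodes the NKCC2 cotransporter, the target of loop diuretics. Its level was 111, 107, 111, 127 and 154 FPKM in males 1 to 5, and 181, 152, 117, 156 and 170 FPKM in females 1 to 5. The male mean was 122 ± 19.5 FPKM and the female mean 155 ± 24.3 FPKM (SD, n = 5 each). Male 5 was the highest male and female 3 the lowest female, and 3 females lay above every male, so the ranges overlapped. The log2 fold change was 0.35 (SE 0.14, 95% interval 0.05 to 0.65) and limma gave an adjusted p of 0.243. The difference in mean FPKM taken alone had p = 0.0476 (exact permutation test, two-sided). That value did not hold when single libraries were left out, since it stayed at or under 0.05 only without male 5 or without female 3 (exact p = 0.0238 for each) and lay between 0.0556 and 0.0873 without any other library. It was 0.0873 (exact permutation test) when FPKM was rescaled to reads outside the mitochondrial genome.

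*Bsnd* encodes barttin, a basolateral membrane protein needed for chloride exit. Male levels were 25.7, 20.5, 21.6, 21.6 and 23.0 FPKM, and female levels were 27.0, 28.8, 36.1, 36.4 and 32.6 FPKM. The means were 22.5 ± 2.01 and 32.2 ± 4.24 FPKM (SD, n = 5 each). Every female lay above every male, although male 1 at 25.7 FPKM and female 1 at 27.0 FPKM were close. Such separation occurred in 5.10% of the tested genes, and in 2.50% with females above. The log2 fold change was 0.51 (SE 0.10, 95% interval 0.28 to 0.74) with a limma adjusted p of 0.0251, and the exact permutation test gave p = 0.00794, the smallest that 5 against 5 allow. Between 857 and 1771 reads stood behind each value.

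The size of the *Bsnd* difference was steady, but its call was near the threshold. Leaving out 1 library at a time gave log2 fold changes of 0.46 to 0.57. The limma adjusted p was 0.0746, 0.0715, 0.0631 and 0.0516 without male 2, 3, 4 or 5, and 0.0615, 0.0600 and 0.0701 without female 3, 4 or 5. It stayed under 0.05 without male 1 (0.0267), female 1 (0.0166) or female 2 (0.0227). limma-voom on the recovered reads gave 0.44 with an adjusted p of 0.0598, and limma without the mean-variance trend gave an adjusted p of 0.0502.

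*Umod* encodes uromodulin, also called Tamm-Horsfall protein. Males had 907, 877, 878, 914 and 1348 FPKM, and females had 1433, 888, 1063, 1438 and 1502 FPKM. The means were 985 ± 204 and 1265 ± 273 FPKM (SD, n = 5 each). Male 5 stood far above the other males, female 2 lay within the range of the other 4 males, and the ranges overlapped. The log2 fold change was 0.35 (SE 0.19, 95% interval -0.07 to 0.78) with a limma adjusted p of 0.419, and the exact permutation test gave p = 0.0714. The fold change of *Umod* and that of *Slc12a1* were nearly equal, and the interval of *Umod* was the wider. Without female 2 the *Umod* fold change was 0.47 (limma adjusted p = 0.169).

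*Cldn16* and *Cldn19* encode the claudins of the cation-selective paracellular pore. *Cldn16* was at 17.5, 18.3, 17.0, 13.6 and 19.4 FPKM in males 1 to 5 and at 18.9, 19.7, 16.1, 18.6 and 19.9 FPKM in females 1 to 5, with means of 17.1 ± 2.18 and 18.6 ± 1.51 FPKM (SD, n = 5 each). The ranges overlapped, with male 4 the lowest library. The log2 fold change was 0.13 (95% interval -0.10 to 0.35, limma adjusted p = 0.617) and the exact permutation test gave p = 0.262.

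*Cldn19* was at 23.5, 24.5, 27.5, 24.4 and 26.3 FPKM in males 1 to 5 and at 35.1, 26.7, 24.3, 17.4 and 23.6 FPKM in females 1 to 5. The means of 25.2 ± 1.59 and 25.4 ± 6.40 FPKM (SD, n = 5 each) differed by far less than the spread. Female 1 was the highest of all 10 libraries and female 4 the lowest, so the female range enclosed the male range. The log2 fold change was -0.02 (95% interval -0.36 to 0.31, limma adjusted p = 0.962; exact permutation p = 0.937), and the sign of the log2 fold change was negative, while the difference of the means was positive. The upper bounds of both claudins, 0.35 and 0.31, lie near the fold change of *Slc12a1*, so a difference of about that size lies within or close to their intervals.

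**Figure D1:**
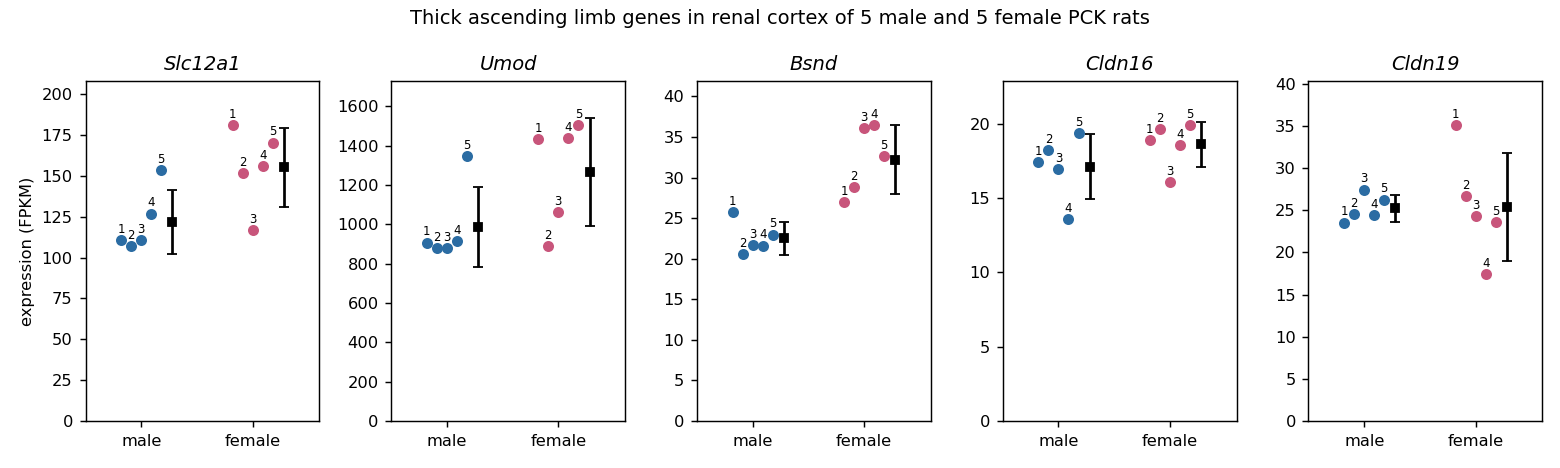
FPKM (linear axis from 0) of the 5 thick ascending limb genes in each library, numbered 1 to 5 within a sex, with the mean and SD of 5 males and 5 females as squares and bars. The sexes are apart for Bsnd alone (22.5 and 32.2 FPKM), male 5 stands above the other males for Umod, and the female range encloses the male range for Cldn19.

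Because FPKM is scaled to gene length, levels can also be compared between the genes. *Umod* was the most abundant of the 5 in all 10 libraries, and it ranked between 12 and 43 among 32508 genes outside the mitochondrial genome. It took 0.187% to 0.327% of the FPKM summed over those genes. *Slc12a1* came next in every library, at ranks 363 to 750, and *Umod* exceeded it by a geometric mean of 8.05-fold (5.85 to 9.21 over libraries). That order had p = 0.00195 (exact sign-flip test over 10 libraries, 0.00244 adjusted over 10 pairs of genes).

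The 3 remaining genes lay close together. *Slc12a1* exceeded *Bsnd* by 5.07-fold, and *Bsnd* exceeded *Cldn16* by 1.5-fold, in every library. *Bsnd* and *Cldn19* did not differ beyond their spread over the 10 libraries, with a geometric mean ratio of 1.07 (0.770 to 2.09; exact sign-flip p = 0.537). That pooled ratio joins opposite orders, since *Bsnd* was the higher in 1 of 5 males and in 4 of 5 females. *Cldn19* exceeded *Cldn16* in 5 males and 4 females, by 1.40-fold (exact p = 0.00391), and female 4 had the opposite order.

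Ratios within a library compare the transcripts of partner genes without the scaling of the library, and 3 were tested. *Cldn16* over *Cldn19*, the partners of the cation pore, had a geometric mean of 0.677 in males and 0.752 in females, a log2 difference of 0.15 (exact permutation p = 0.476, 0.714 adjusted over the 3). *Slc12a1* over *Umod* was 0.124 in both sexes, a difference of -0.01 (exact p = 0.952).

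*Slc12a1* over *Kcnj1*, the apical cotransporter over the apical potassium channel ROMK, was 1.44 in males and 1.18 in females. The log2 difference of -0.29 had an exact p of 0.103 and an adjusted p of 0.310, so no ratio passed. Without female 1 it was -0.39 (exact p = 0.0317) and without female 3 it was -0.19 (exact p = 0.190). Single females had the extreme values, with *Cldn16* over *Cldn19* at 1.07 in female 4 and *Slc12a1* over *Umod* at 0.171 in female 2, without which the log2 difference of that ratio was -0.12 (exact p = 0.103).

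**Figure D2:**
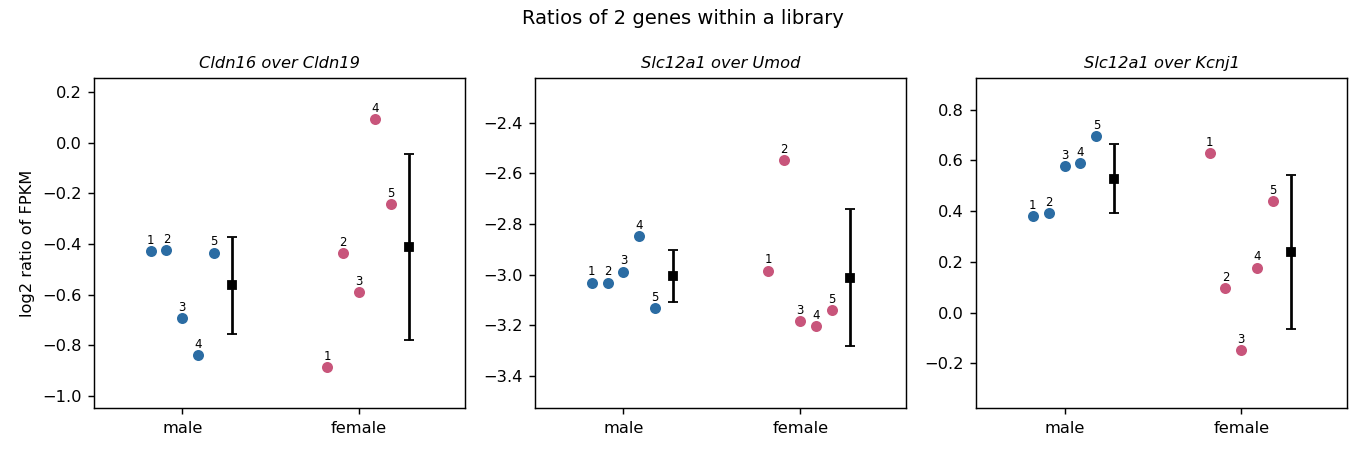
Log2 ratio of FPKM of 2 genes within each library (points, numbered within a sex), with the mean and SD of 5 males and 5 females as squares and bars. The 3 panels have equal spans on their vertical axes but different centres, and the sexes overlap in each, as for Cldn16 over Cldn19 (0.677 in males and 0.752 in females as geometric means).

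The 5 genes were then read against 11 other genes known for this segment (*Kcnj1*, *Casr*, *Cldn10*, *Egf*, *Ppp1r1a*, *Ptger3*, *Tmem72*, *Tmem207*, *Irx1*, *Irx2* and *Esrrb*). Their summed level was 318 to 368 FPKM over males and 441 to 525 over females, without overlap. Of the 11, 5 were higher in females and 1 was lower by limma adjusted p, beside 1.26% and 1.14% of all genes, and their median log2 fold change was 0.39. The count was again 5 without male 5, was 4 without female 2 and 3 without female 1 or 3, and was 2 without any 1 of the other 6 libraries. The 1 lower gene, *Ptger3*, passed without female 1 or 2 and in no other such fit. Each of the 11 had at least 50 reads in every library. *Bsnd* is also known from the distal convoluted tubule and intercalated cells.

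With the mean log2 level of the 11 subtracted, *Slc12a1* differed by -0.02 and *Umod* by -0.01 between females and males (exact permutation p = 0.857 and 0.984). *Bsnd* differed by 0.15 (exact p = 0.246), which did not pass the threshold. *Cldn16* differed by -0.24 (exact p = 0.0714) and *Cldn19* by -0.39 (exact p = 0.0476), and both were 0.179 after adjustment over the 5 comparisons. The *Cldn19* value kept its unadjusted call without female 1 alone (-0.50, exact p = 0.00794), was smallest without female 4 (-0.25) and had exact p-values of 0.0556 to 0.111 without each of the libraries other than female 1. For *Cldn16* it was -0.33 without male 4 (exact p = 0.00794) and -0.27 to -0.19 without each of the others. Subtracting the median of the 11, each centred on its own mean, gave -0.29 for *Cldn16* (exact p = 0.0317) and -0.44 for *Cldn19* (exact p = 0.0397), and subtracting their plain median gave -0.33 (exact p = 0.0635) and -0.48 (exact p = 0.0238).

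Lists of marker genes gave the levels of other cell types, to be read beside the 1.26% of all genes that were higher and the 1.14% that were lower. The summed level of 6 intercalated cell markers ran from 189 to 276 FPKM over males and from 287 to 429 over females, and 2 of the 6 passed as higher (*Atp6v0d2* and *Rhcg*). Of the 10 fits without 1 library *Atp6v0d2* was called in 3 and *Rhcg* in 6, and neither was called without male 2, male 3, male 4 or female 3. *Atp6v0d2* was also lost with scaling to reads outside mitochondria (limma adjusted p = 0.0734). For the distal convoluted tubule it was 211 to 342 and 322 to 558 FPKM, with 1 of 4 tested genes higher (*Calb1*, called in 5 of the 10 fits and lost without male 2, 3 or 4 or female 3 or 4) and *Pvalb* at 0 in every library. These are the other cells in which *Bsnd* is known to be expressed, and their part in the *Bsnd* result was not tested. The 6 principal cell markers summed to 314 to 504 and 362 to 568 FPKM, with overlapping ranges and 1 higher, *Avpr2*, which is also a pathway gene. Its call held in 2 of the 10 fits without 1 library and was lost under limma-voom (0.135) and with scaling to reads outside mitochondria (0.0571).

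The sums of 3 further lists had lower female than male means. The 5 fibroblast and mural cell markers summed to 256 to 340 FPKM over males and 82.5 to 275 over females, and 1 of them passed as lower (*Col3a1*, limma adjusted p = 0.0477). That call held without female 2, 3 or 4 only, and was lost with scaling to reads outside mitochondria (0.0640). The 6 leukocyte markers summed to 554 to 1179 and 335 to 751 FPKM, and the 3 tubule injury markers to 3271 to 7168 and 898 to 5566 FPKM, none of them past the test and with overlapping ranges in both lists. Female 4, the lowest library for *Cldn19*, was also the lowest for the fibroblast, leukocyte and injury lists. Male 5, the highest male for *Slc12a1* and *Umod*, had the highest leukocyte and injury sums and the lowest proximal tubule sum (1797 FPKM, against 2923 to 3778 FPKM in the other males). *Spp1* made up most of the injury sum (mean 4867 of 4985 FPKM in males). By mean log2 level the injury list was highest in male 4 (1.18 above the mean of the libraries), with male 5 at 1.14. The part of these lists in the values of the 5 genes was not tested.

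**Figure D3:**
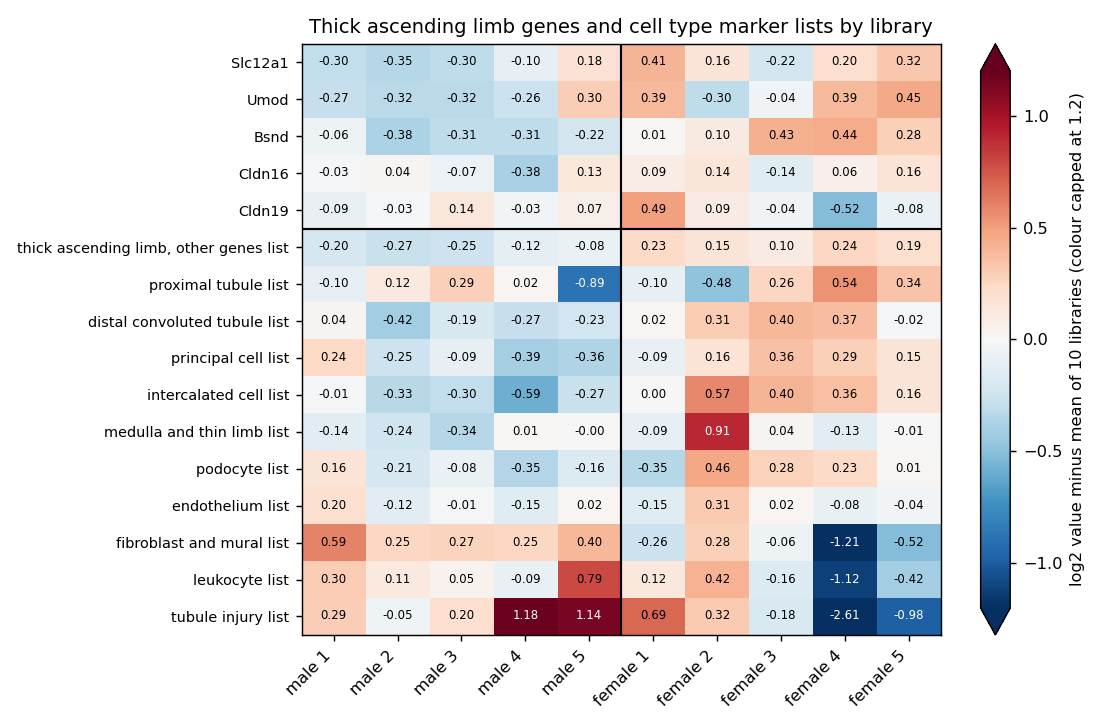
Log2 level of each of the 5 genes, and mean log2 level of each marker list, in each of 10 libraries minus the mean of the 10 libraries (colour, capped at 1.2 either way, and the number in each cell). Female 4 is low for Cldn19 and for the fibroblast, leukocyte and injury lists, and male 5 is high for Umod and for the leukocyte and injury lists.

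Between rats of the same sex, *Slc12a1* and *Umod* varied most alike. With the mean of each sex removed, the log2 values of the 10 libraries correlated with r = 0.73 (exact permutation p = 0.0309, 0.155 adjusted over 10 pairs) and rho = 0.82 (exact p = 0.00611, adjusted 0.0611). Without female 3 and male 5, the libraries farthest from the median of *Slc12a1*, r was 0.61. *Bsnd* and *Cldn19* varied oppositely, with r = -0.75 (exact p = 0.0211, adjusted 0.155) and rho = -0.68 (exact p = 0.0598, adjusted 0.299), and r was -0.64 without female 1 and male 1. *Cldn16* and *Cldn19*, whose products form one pore, had r = 0.12 (exact p = 0.679) and rho = 0.02. No pair passed after adjustment.

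The genes most like each of the 5 were found by the same r over the 10 libraries, among 11965 genes that averaged 1 FPKM or more. For *Slc12a1* they were *Adat2* (r = 0.961), *Nipal2* (0.926) and *Cyp2j4* (0.925), and for *Umod* they were *Etnk2* (0.954), *Mzt2b* (0.951) and *Gmds* (0.948). The nearest to *Bsnd* were *Hfe2* (0.930), *Aqp2* (0.924), the water channel of principal cells, and *Msh5* (0.913). For *Cldn16* they were *Zmym1* (0.978), *Spcs2* (0.939) and *SNORA41* (0.915), and for *Cldn19* they were *Galnt6* (0.955), *Poc1b* (0.953) and *Nlrc5* (0.935). These genes were picked for their r, which is therefore a description and carries no test.

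Around the 5 genes stand 36 genes of the same pathway, all of which were tested. They include 8 of the 11 genes above, so that *Kcnj1*, *Egf*, *Esrrb* and *Ptger3* count in both tallies. Of the 36, 7 were higher in females (*Kcnj1*, *Wnk1*, *Stk39*, *Avpr2*, *Egf*, *Esrrb* and *Pou3f3*) and 1 was lower (*Ptger3*), beside 1.26% and 1.14% of all genes. The fold change was above 0 for 25 of the 36, beside 48.8% of all genes, and the median log2 fold change was 0.18. Ranges did not overlap for 7 genes with females above and for 2 with females below, beside 2.50% and 2.60%. The count was again 7 without female 2, and was 5 or 6 without male 1, male 5, female 1 or female 5. It was 4 without male 4 or female 3, and 3 without male 2, male 3 or female 4. The counts without female 2 and without female 5 include genes not called with all 10 libraries. Of the 7 named, *Wnk1* was lost without female 2 (limma adjusted p = 0.0599). *Avpr2* (0.1245), *Esrrb* (0.0659) and *Pou3f3* (0.0541) were lost without female 5. The count of 1 lower was 2 without female 2, 1 without female 1 and 0 without each of the other libraries.

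At the apical membrane, *Kcnj1* encodes ROMK, which returns potassium to the lumen and is also present in the collecting duct. It was at 85.1, 81.5, 74.0, 84.3 and 94.9 FPKM in males 1 to 5 and at 117, 142, 130, 138 and 126 FPKM in females 1 to 5, and every female was above every male. Its log2 fold change of 0.64 (SE 0.09) had a limma adjusted p of 0.00263 and was called without any 1 of the 10 libraries. *Kcnma1* and *Slc9a3* did not pass, so 1 of 3 apical partners rose, beside 1.26% of all genes.

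On the basolateral side, 5 genes of potassium channels and the sodium pump were tested. Each had a fold change above 0, with a median of 0.39, and none passed. Of these, 3 are named after their values were seen. *Kcnj10*, which encodes the potassium channel Kir4.1, was at 8.15 ± 1.75 and 13.0 ± 2.65 FPKM (log2 fold change 0.67, SE 0.18, limma adjusted p = 0.0840, exact permutation p = 0.0159). *Kcnj16*, for its partner Kir5.1, was at 267 ± 53.5 and 413 ± 102 FPKM (0.62, SE 0.20, limma adjusted p = 0.157, exact permutation p = 0.0317). *Fxyd2*, for a regulatory subunit of the sodium pump, was at 3413 ± 334 and 4491 ± 474 FPKM (0.39, SE 0.19, limma adjusted p = 0.346, exact permutation p = 0.0159). The male and female ranges of each of the 5 genes overlapped, while their summed level, in which *Fxyd2* had the most FPKM, was 5565 to 6184 FPKM over males and 6434 to 8233 over females, without overlap.

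Of 8 kinases and scaffolds that act on NKCC2, 2 rose, beside 1.26% of all genes. *Stk39* encodes SPAK, a kinase that phosphorylates NKCC2. *Stk39* averaged 9.49 ± 0.731 FPKM in the males and 13.8 ± 1.71 in the females (log2 fold change 0.53, SE 0.10, limma adjusted p = 0.0179). Of the 10 fits without 1 library, its call was lost in the fit without male 3 (0.0558). *Wnk1*, a kinase upstream of SPAK, was at 49.3 ± 5.47 and 72.2 ± 11.8 FPKM (0.54, adjusted p = 0.0422), a call that held without male 1, female 1 or female 5 only, and that reached 0.111 without male 3. It was also lost under limma-voom (0.0953) and with scaling to reads outside mitochondria (0.0914). *Oxsr1*, the kinase closest to SPAK, was at 17.9 ± 1.12 and 16.8 ± 1.98 FPKM (adjusted p = 0.690), and *Maged2*, which promotes NKCC2 at the cell surface, at 17.4 ± 1.74 and 16.7 ± 1.91 FPKM (adjusted p = 0.845).

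Among tight junction genes none of 4 passed. *Cldn3*, named after its values were seen, had the lowest fold change of the 36 genes, at 19.9 ± 2.65 FPKM in the males and 10.7 ± 4.05 in the females (log2 fold change -0.98, SE 0.25, limma adjusted p = 0.0776). Every female lay below every male (exact permutation p = 0.00794), and limma-voom gave an adjusted p of 0.0417. Scaling to reads outside mitochondria gave 0.107, and of the 10 fits without 1 library 1 called it, with adjusted p-values of 0.0343 to 0.178. *Cldn10* encodes a claudin of the sodium pore in this limb, and its values, like the others, do not separate isoforms. *Cldn10* was at 82.4 ± 11.0 and 91.7 ± 12.6 FPKM (0.15, limma adjusted p = 0.581). *Cldn14*, which blocks the cation pore when calcium is high, was low at 1.09 ± 0.459 and 1.18 ± 0.671 FPKM, with 5 to 41 reads per library, and its log2 fold change of -0.01 had an interval of -1.15 to 1.13.

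Of 7 genes for calcium sensing and hormone receptors, 1 rose and 1 fell, beside 1.26% and 1.14% of all genes. *Casr*, the calcium-sensing receptor, was at 8.14 ± 1.39 and 10.7 ± 1.42 FPKM (0.39, SE 0.13, limma adjusted p = 0.172). *Avpr2*, the vasopressin V2 receptor, was at 13.6 ± 1.75 and 18.4 ± 1.21 FPKM (0.44, adjusted p = 0.0469), and its call held without male 1 or female 2 only, with 0.124 without female 5 the highest value. It was also lost under limma-voom (0.135) and with scaling to reads outside mitochondria (0.0571). *Ptger3*, a prostaglandin E2 receptor, was at 34.8 ± 4.43 and 22.9 ± 4.12 FPKM (log2 fold change -0.62, adjusted p = 0.0435), and its call held without female 1 or female 2 only, with 0.0990 without male 3 the highest.

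Among 3 genes of divalent cation handling, 1 rose, beside 1.26% of all genes, and that was *Egf*. It encodes epidermal growth factor, which the kidney makes in the distal nephron and which promotes magnesium uptake. Its levels were 31.8, 27.7, 29.1, 31.9 and 32.2 FPKM in males 1 to 5 and 45.1, 45.9, 58.1, 64.9 and 57.4 FPKM in females 1 to 5, with a log2 fold change of 0.82 (SE 0.11, limma adjusted p = 0.00233) that was called without any 1 of the 10 libraries.

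Of 5 transcription factors, 2 rose, beside 1.26% of all genes, and the protease of uromodulin, *Hpn*, did not pass. *Pou3f3* was at 25.6 ± 3.49 and 39.4 ± 5.70 FPKM (0.62, limma adjusted p = 0.0220), a call lost without male 2 (0.0649), female 4 (0.0568) or female 5 (0.0541). *Esrrb*, an estrogen-related receptor, was at 2.70 ± 0.478 and 4.78 ± 0.919 FPKM (0.80, adjusted p = 0.0299), and its call held without male 5 or female 2 only, with 0.0748 without male 2 the highest. limma-voom gave 0.0632.

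**Figure D4:**
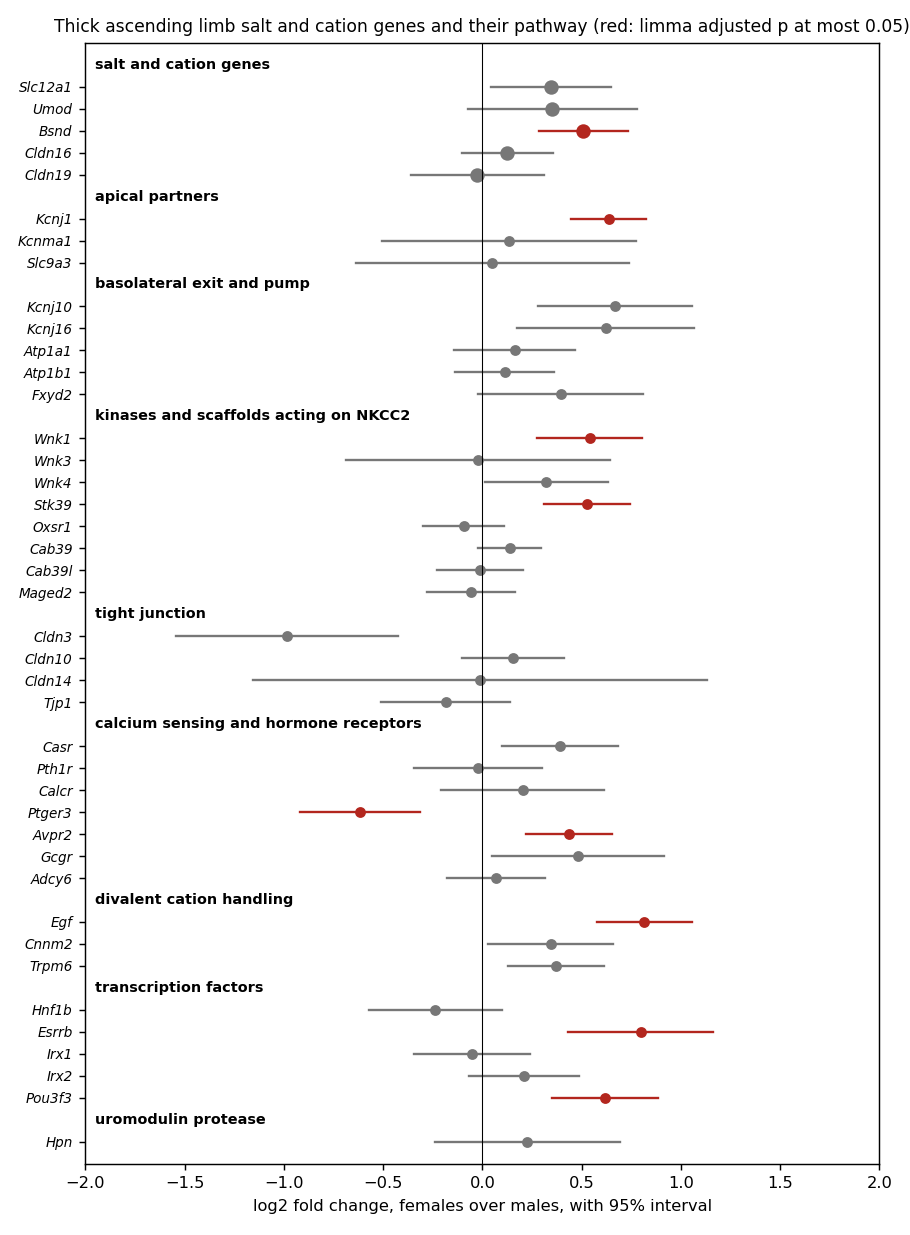
Log2 fold change (female over male, limma on log2(FPKM + 0.1)) with its 95% interval for the 5 genes and the 36 pathway genes, grouped by role, with genes past an adjusted p of 0.05 in red and the others in grey. Bsnd (0.51) is the called gene among the 5, Kcnj1 (0.64) and Egf (0.82) have narrow intervals above 0, and Ptger3 (-0.62) is the called gene below 0.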

How the data were processed

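RNA-Seq of renal cortex from 5 male and 5 female PCK rats was analysed as 1 deposited table of FPKM for 32545 genes, grouped by the sex in the labels. Per the submitters' processing notes the tools were fastp, HISAT2 2.0.5, StringTie 1.3.3b and featureCounts 1.5.0-p3, and the build was Rnor_6.0. The authors deposited FPKM, which are not counts, so limma 3.58.1 (lmFit, eBayes with trend; R 4.3.3) was run on log2(FPKM + 0.1) for the 17631 genes that averaged 0.1 FPKM or more, with Benjamini-Hochberg adjustment. Low values were whole multiples of 1 read for 100% of values (tolerance 0.01), which gave the depths of 13912569 to 20285911 reads on genes and allowed limma-voom as an alternative. Single values were compared by two-sided exact permutation tests (scipy 1.17.1). The scripts were tested on simulated data with log2 changes of 1 and 2, of which limma recovered 62.1% and 84.1%. Smaller changes, such as those of the 5 genes, were not simulated.

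The 5 genes and all gene lists were chosen with earlier results of these data known, and items not reported here were left out of the lists and ratios. Genes named with a fold change beside the 5 were 8 partner genes and every called gene of the 36-gene pathway list, and for each of the 5 the 3 genes with the highest r were named. Other genes are named as members of their lists, *Cldn3*, *Kcnj10*, *Kcnj16*, *Fxyd2* and the called or absent marker genes after their values were seen. Library preparation may differ in strand, and the labels describe both kinds. Rats are separate animals, but litters were not mapped, and no library pair agreed within sampling noise (lowest chi-square per degree of freedom 9.71). Upstream sequences came from RefSeq (GRCr8) and were not aligned to the Rnor_6.0 coordinates.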

Additional observations from a re-analysis of the deposited data

Results flagged for a closer look

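In 26 groups of 5 values (the 5 genes, the 3 ratios and the 5 levels relative to the other thick ascending limb genes, each in both sexes) the gap of the highest or lowest library to its neighbour was set against the range of the group. It passed Dixon's critical value of 0.71 in 3 groups, where chance passes about 1 in 20. *Umod* in male 5 was at 1348 FPKM, with a gap of 0.920 of the male range. Relative to the 11 other thick ascending limb genes, *Umod* in male 5 was at 6.13 on the log2 scale, with a gap of 0.826 of the range. Male 5 also had the lowest proximal tubule sum and the highest leukocyte and injury sums. By mean log2 level the injury list was highest in male 4 (1.18, against 1.14 in male 5). The part of these lists in the *Umod* level of male 5 was not tested. *Cldn16* in male 4 was at -0.45 relative to the same 11 genes, with a gap of 0.780 of the range.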

How the results depend on the processing

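Of 395 repeats of the results under other settings, 300 kept direction and side of the threshold or, for counts of genes, stayed within 1.5 times. The deviations of same-numbered libraries correlated at -0.14, -0.16, 0.16, 0.07 and -0.02, and those of other pairs of a male and a female at -0.26 to 0.22. These values give no sign of a pairing by replicate number but cannot exclude one. A replicate block gave 119 genes higher and 112 lower, with *Bsnd* at 0.51 (limma adjusted p = 0.111), 2 pathway genes higher and 0 lower, and 3 of the other thick ascending limb genes higher and 0 lower. limma-voom on recovered reads gave 190 genes higher and 318 lower, *Bsnd* at 0.44 (adjusted p = 0.0598), 4 pathway genes higher and 2 lower and 3 other thick ascending limb genes higher, and limma without trend gave *Bsnd* 0.51 (adjusted p = 0.0502). A pseudocount of 1 gave 65 genes higher and 72 lower past both thresholds. Scaling to reads outside mitochondria gave a female minus male difference of mean FPKM of 30.8 for *Slc12a1* (exact permutation p = 0.0873) and of -0.0657 for *Cldn19*. With that scaling 3 other thick ascending limb genes were called higher.

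Relative to the median of the 11 genes, *Slc12a1* was -0.11, *Umod* -0.10, *Bsnd* 0.05, *Cldn16* -0.33 and *Cldn19* -0.48. With centred values, a setting added after seeing the data, *Cldn16* was -0.29 (exact p = 0.0317) and *Cldn19* -0.44 (exact p = 0.0397). The cause was not tested.

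Leaving out 1 library gave 140 to 284 genes higher and 124 to 266 lower (82 to 114 and 89 to 148 past both thresholds), with the highest counts without female 2. Log2 fold changes were 0.29 to 0.45 for *Slc12a1*, 0.28 to 0.47 for *Umod*, 0.46 to 0.57 for *Bsnd*, 0.05 to 0.18 for *Cldn16* and -0.15 to 0.10 for *Cldn19*. Differences in FPKM were 27.0 to 42.9 for *Slc12a1*, 221 to 374 for *Umod*, 8.64 to 11.0 for *Bsnd*, 0.617 to 2.13 for *Cldn16* and -2.26 to 2.16 for *Cldn19*. Log2 ratio differences were 0.03 to 0.27 (*Cldn16* over *Cldn19*), -0.12 to 0.042 (*Slc12a1* over *Umod*) and -0.39 to -0.19 (*Slc12a1* over *Kcnj1*). Relative differences were -0.065 to 0.060 for *Slc12a1*, -0.077 to 0.10 for *Umod*, 0.080 to 0.22 for *Bsnd*, -0.33 to -0.19 for *Cldn16* and -0.50 to -0.25 for *Cldn19*. Pathway genes were 3 to 7 higher and 0 to 2 lower, and other thick ascending limb genes 2 to 5 higher and 0 to 1 lower.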

Other observations

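The remaining marker lists gave these levels. The 8 proximal tubule markers summed to 1797 to 3778 FPKM over males and 2311 to 4431 over females, with 1 of 8 higher in females by limma adjusted p (*Cubn*, 0.0467). That call held without male 4 or female 2 only, and limma-voom gave 0.0675. The 5 podocyte markers summed to 125 to 166 FPKM over males and 117 to 197 over females, and the 6 endothelial markers to 102 to 132 and 102 to 153 FPKM, with none past the test. The medulla and thin limb list, with 5 genes tested, summed to 31.6 to 42.2 FPKM over males and 34.2 to 42.6 over females, and none passed. *Akr1b1* made up most of that sum, with means of 27.1 FPKM in males and 24.8 in females. By mean log2 level the list stood at 0.91 above the mean of the 10 libraries in female 2, with female 3 next at 0.04. The tested row of *Slc14a2* had a highest female value of 2.24 FPKM and a highest male value of 0.0665 FPKM.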
